A study of Mus musculus with 4 samples.

Results

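The regions described here are 1233 places in the genome of mouse hair follicle stem cells where a strong peak of accessible chromatin was listed for mice bred for deletion of Nfib and Nfix, genes of the nuclear factor I (NFI) family, and no peak was listed for control mice. They were selected on the peak lists themselves: a member is a peak of the knockout list, outside the mitochondrial genome, whose pileup (the deposited height of the read stack at the peak's summit) was at or above that list's median of 38, and which shared no base with any peak of the control list. By this rule 1233 of 32048 strong knockout peaks were members (3.85%). Over all 63545 knockout peaks, strong and weak, 11250 had no control peak (17.7%), and below the median the share was 31.8%, and members are the strong end of a set that otherwise holds 10017 weak peaks. These shares follow from the rule and carry no test.

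ATAC-seq, a method that tags open DNA with a transposase, was applied to cells sorted from mouse back skin. The mice were males at postnatal day 70, in the second telogen, when the follicle rests. The control mice (WT, mice 13 and 15) were of the genotype NFIBfl/fl;NFIXfl/fl;R26-YFPfl/fl and carried no Cre. The knockout mice (dKO, mice 14 and 16) had the same floxed alleles and Sox9-CreER, a tamoxifen-dependent Cre under control of Sox9, a gene of the follicle stem cells and of their descendants. All cells were DAPI-negative, Sca-1-negative, integrin α6-positive and CD34-positive, and dKO cells were also positive for YFP, so a Cre effect, a difference of sort gate and a loss of NFI proteins cannot be told apart by genotype alone. The time of Cre induction is not given in the sources used here. Each genotype has 1 deposited list for its 2 mice, so no difference between genotypes has a replicate check, no p-value was computed for any, and the 95% intervals below cover counting error only.

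NFIB and NFIX belong to the nuclear factor I family of transcription factors, which bind DNA as dimers at the palindrome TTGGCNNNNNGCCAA and at its separate arms. In hair follicle stem cells, which sit in the bulge of the follicle and rest between hair cycles, the family is known as a regulator of stem cell behaviour, in part through enhancers. An ATAC peak away from gene starts often marks an enhancer, and a peak at a gene start the promoter. Whether a member acts as either was not measured.

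Sequence could be read only where a member reached a gene's promoter, because RefSeq promoter windows (GRCm38.p6, the assembly that mm10 names) were held and the genome sequence was not. Of 32817 windows of 250 bases before a gene start, 28 lay at least partly under a member (0.0853%), against 12585 under strong dKO peaks that had a WT peak (38.4%). These 28 windows belonged to 27 genes and 26 members, and 13 of them were windows of protein-coding genes. The 6 windows below are shown because they carry what the sequences have to say: Zfp932 (chr5:109996260-109996509, plus strand) and Egf (chr3:129755323-129755572, minus strand) are the protein-coding genes whose whole window lay under a member more than 5 kb from any WT peak. The other 4 hold the searched NFI arm TTGGCA or the AP-1 motif, set in capitals. Gm36823 (chr3:38443875-38444124, minus strand) holds the NFI arm TTGGCA at bases 42 to 47, but its member covers only the last 142 bases of the window and the arm lies 62 bases beyond the member's end. 1700011B04Rik (chr13:35181373-35181622, plus strand), Tmem40 (chr6:115762467-115762716, minus strand) and Tmem88b (chr4:155785875-155786124, minus strand) hold the AP-1 motif TGANTCA, which lies under the member in all 3. Each is written 5′ to 3′ on the gene's strand and ends at the base before the gene start.
Zfp932: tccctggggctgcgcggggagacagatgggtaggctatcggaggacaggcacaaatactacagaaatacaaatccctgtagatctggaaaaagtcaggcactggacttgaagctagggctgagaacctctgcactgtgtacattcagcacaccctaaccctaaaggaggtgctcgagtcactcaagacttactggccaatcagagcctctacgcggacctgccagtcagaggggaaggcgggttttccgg
Egf: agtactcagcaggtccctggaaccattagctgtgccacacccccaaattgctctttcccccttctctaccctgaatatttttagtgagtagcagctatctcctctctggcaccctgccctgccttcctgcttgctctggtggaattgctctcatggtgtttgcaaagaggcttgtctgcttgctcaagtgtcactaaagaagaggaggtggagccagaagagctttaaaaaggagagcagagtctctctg
Gm36823: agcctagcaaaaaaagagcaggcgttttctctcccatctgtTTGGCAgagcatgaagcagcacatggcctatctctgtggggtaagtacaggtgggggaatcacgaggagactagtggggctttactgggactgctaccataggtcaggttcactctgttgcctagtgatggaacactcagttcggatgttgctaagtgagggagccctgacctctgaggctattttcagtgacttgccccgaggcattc
1700011B04Rik: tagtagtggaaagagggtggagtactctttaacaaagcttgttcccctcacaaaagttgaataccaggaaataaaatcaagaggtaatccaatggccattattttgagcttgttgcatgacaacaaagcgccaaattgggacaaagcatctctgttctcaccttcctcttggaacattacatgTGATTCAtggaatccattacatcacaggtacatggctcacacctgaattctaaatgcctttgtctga
Tmem40: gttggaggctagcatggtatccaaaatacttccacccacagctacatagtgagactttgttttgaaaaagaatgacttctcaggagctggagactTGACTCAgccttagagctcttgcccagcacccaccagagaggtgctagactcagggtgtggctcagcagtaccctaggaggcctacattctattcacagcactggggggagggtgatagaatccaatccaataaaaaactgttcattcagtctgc
Tmem88b: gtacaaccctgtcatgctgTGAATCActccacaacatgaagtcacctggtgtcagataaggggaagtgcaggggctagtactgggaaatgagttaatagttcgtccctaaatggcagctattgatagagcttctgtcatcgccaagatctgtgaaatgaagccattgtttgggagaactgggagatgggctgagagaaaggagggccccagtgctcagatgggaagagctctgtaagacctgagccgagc

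Of the NFI motifs searched, neither TTGGCA nor the full palindrome thus lay under a member in these windows. The shorter arm TTGGC, which reads GCCAA on the other strand, was not counted. GCCAA stands in the printed windows of Zfp932, 1700011B04Rik and Tmem88b, all wholly under a member. Counted over whole windows, covered or not, the arm TTGGCA was in 1 of 28 windows that a member reached (3.57%, Wilson interval 0.633 to 17.7), against 12.3% of all promoter windows and 8.86% of those under strong dKO peaks with a WT peak. The full palindrome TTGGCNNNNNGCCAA was in 0 of 28, and in 0.0366% of all windows. AP-1, the dimer of FOS and JUN proteins that acts in many stress and enhancer programmes, had its motif TGANTCA in 3 of 28 windows (10.7%, 3.71 to 27.2), against 6.75% of all windows. All 3 intervals hold the share of all windows, and so few windows show a difference only if it is large. Both strands were read, and a match is a stretch of letters and not evidence of binding.

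Of the other 17 motifs searched, also counted over whole windows, none had a share under members whose interval left out the share of all windows, except the E box CAGCTG. That motif was in 0 of 28 windows, with an upper bound of 12.06%, against 13.01% of all windows, while the E box CACCTG was in 7 of 28 (25%) against 17.2%. The SOX motifs ACAATG and ACAAAG were in 3 and 6 windows (10.7% and 16.5% of all windows), TCF/LEF CTTTGAA in 3 (4.46%), RUNX TGTGGT in 6 (14.04%) and the LIM homeodomain motif TAATTA in 0 (4.85%). TEAD GGAATG was in 1 window (12.6% of all), AGATAA, for GATA factors, in 3 (9.99%), and the ETS motifs CCGGAA and AGGAAG in 2 (12.02%) and 7 (29.5%). The p53 family motif CNTGNNNNNNCNTG was in 5 (13.3%), KLF GGGNGTGG in 6 (15.9%), forkhead TGTTTAC in 0 (3.16%), CREB/ATF TGACGTCA in 1 (1.55%), the POU octamer ATGCAAAT in 0 (1.60%) and the CTCF core CCACNAGGNGGC in 0 (0.296%). Windows under strong dKO peaks with a WT peak held CAGCTG in 11.4%, inside the interval under members. Their shares of CTTTGAA (2.83%), TGTGGT (9.82%) and CCGGAA (23.3%) lay outside the intervals under members (3.71 to 27.2, 10.2 to 39.5 and 1.98 to 22.65). No allowance was made for the number of motifs read. Read on the other strand, ACAAAG shares the letters CTTTG with CTTTGAA, so both can match at overlapping places. Matches that lay wholly under the member were fewer for ACAAAG (5 windows), CTTTGAA (2), TGTGGT (3), AGGAAG (5), CNTGNNNNNNCNTG (4), CACCTG (5) and TGACGTCA (0), and equal in number for the others of these 17. The windows under members had a median GC content of 51.2%, near the 52.4% of all windows and below the 61.2% of windows under strong dKO peaks with a WT peak.

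Depth and identity of the lists bear on every value below. The lowest local background was 5.288 in WT and 2.728 in dKO, which makes WT the deeper list by a factor of 1.94 if both were called alike. The WT list went down to a pileup of 14, or 2.65 times its lowest background, while the lowest member pileup was 13.9 times the lowest background of the dKO list. Both ratios use the lowest background of a list. Members within 5 kb of a WT peak stood on a local background with a median of 5.48 times the lowest of the dKO list. Whether the WT list could have held a peak at each member's place was not tested. Of 10 marker genes of follicle stem cells, 9 had a WT peak and 8 a dKO peak within 1 kb of an end. Krt14 and Nfatc1 had none in dKO. Of 5 markers for each other cell type, dKO peaks stood at the ends of 4 for interfollicular epidermis, 2 for fibroblasts, 2 for melanocytes, 2 for endothelium and 0 for immune cells, and WT peaks at 5, 2, 2, 2 and 1. The share of other cells in either sort and their part in the members was not tested.

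Members were near the bottom of the strong range. Their pileup ran from 38 to 166 with a median of 49 and quartiles of 42 and 60, against a median of 85 for strong dKO peaks with a WT peak. The deposited fold enrichment, the pileup plus 1 over the local background plus 1, ran from 1.56 to 31.4 with a median of 5.51. Their median width was 575 bp (555 to 603), against 1010 bp in strong dKO peaks with a WT peak. Among the members just inside the threshold, with a pileup of 38, those with the highest −log10 q in the authors' deposited table lay in Rapgef5 and 93627 bp from Esp38, both at 28.05. Just outside it, with a pileup of 37, the corresponding peaks of the authors' deposited table lay 33573 bp from Sbspon and 76085 bp from Crygf, both at 26.91. There were 80 dKO peaks without a WT peak at 38 and 93 at 37.

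Fold enrichment divided the members into 2 kinds. There were 269 members with a fold of 2 to 3, 35 with a fold of 6 to 7, and 126 with a fold of 10 to 11. The kinds followed the distance to the nearest WT peak. Of the 745 members within 5 kb of a WT peak (60.4%, 57.7 to 63.1), 663 had a fold under 7 (89.0%), and of the 488 farther away (39.6%), 469 had a fold of 7 or more (96.1%). Strong dKO peaks with a WT peak, reweighted to the pileups of the members, showed 1 broad rise towards a fold of 10 to 11, with 4.37% at 2 to 3, 9.16% at 6 to 7 and 12.8% at 10 to 11. The 5 kb line was chosen after the values were seen, and the local background of a peak rises with the reads around it, so this division is a description. Strong WT peaks without a dKO peak divided in a like way, with values given below. The histogram of fold shows both kinds beside the reweighted peaks.

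**Figure D1:**
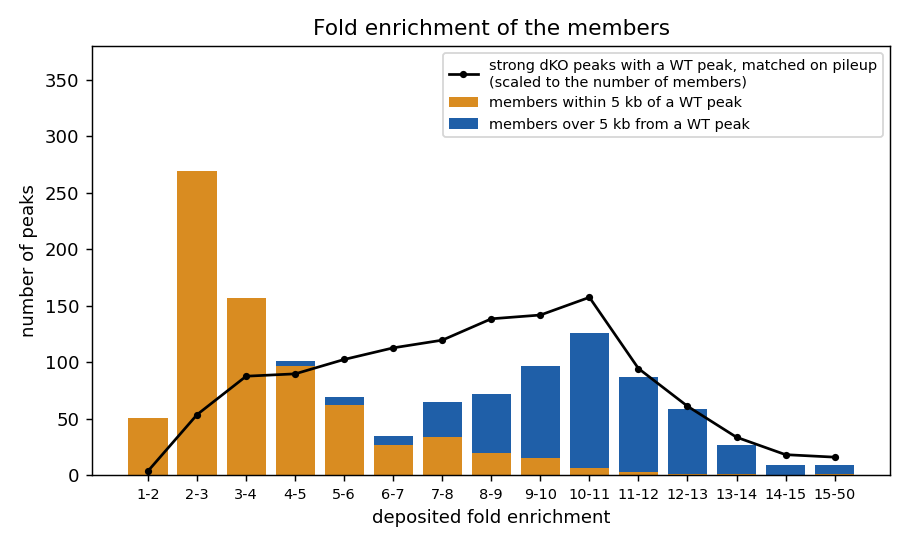
Number of members (y axis) in ranges of deposited fold enrichment (x axis, steps of 1, the last range being wider), coloured by whether a WT peak lay within 5 kb. The line gives strong dKO peaks with a WT peak, reweighted to the members' pileups and scaled to their number. Members peak at 2 to 3 (269) and at 10 to 11 (126) with a low of 35 at 6 to 7, and the line has its peak at 10 to 11.

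Near members, those within 5 kb of a WT peak, were mostly narrow peaks beside regions open in both genotypes. Their median fold was 3.315, their median width 408 bp and their median local background 14.95, which is 5.48 times the lowest of the dKO list. The nearest WT peak had a dKO peak of its own in 682 of 745 (91.5%), with a median WT pileup of 210. Another dKO peak lay within 5 kb of 723 of them (97.05%). The nearest other dKO peak was higher than the member in 575 (77.2%), and the median member stood at 0.511 times its neighbour's pileup. The WT pileup under a member is not in a peak list, so whether accessibility there was lower in WT, or a WT signal was joined to or lost beside the neighbouring peak, was not tested.

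Far members, those with no WT peak within 5 kb, were wider and stood on low background. Their median pileup was 47, close to the 50 of near members, but their median fold was 10.47, their median width 820 bp and their median background 3.708, or 1.36 times the lowest of the list. The nearest WT peak was a median of 22877.5 bp away, and 387 of 488 had no other dKO peak within 5 kb. The lowest fold among them was 4.203, and 62 stood at the lowest background of the list. For all members the distance to the nearest WT peak ran from 29 bp to 1409819 bp with a median of 3084 bp (2798 to 3370).

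**Figure D2:**
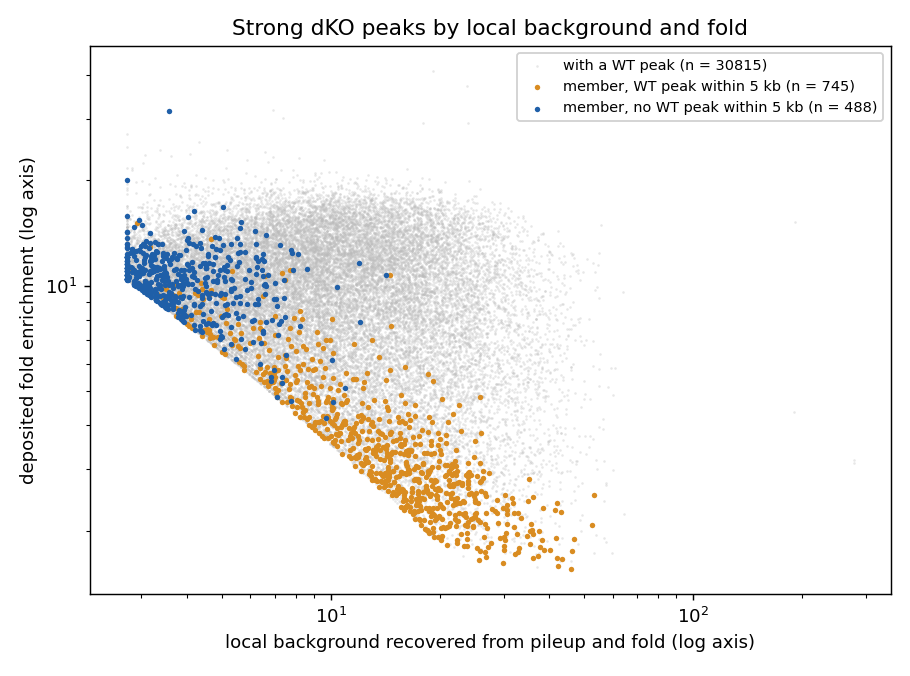
Deposited fold enrichment (y axis, log) against local background (x axis, log) for each strong dKO peak, grey where a WT peak overlapped (n = 30815), orange for members within 5 kb of a WT peak (n = 745) and blue for the other members (n = 488). The straight lower edge is the pileup threshold of 38, along which most members lie, far members at the left (median background 3.708) and near members at the right (median 14.95).

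The median fold changed most from the step of 2 to 5 kb to that of 5 to 20 kb. In steps of distance to the nearest WT peak, the median fold was 2.80 for the 244 members within 1 kb, 3.11 for the 217 at 1 to 2 kb, 4.315 for the 284 at 2 to 5 kb, 10.3 for the 226 at 5 to 20 kb and 10.7 for the 262 beyond. Median width in the same steps was 364, 395, 500, 798 and 840.5 bp. The nearest WT peak itself had a median pileup of 229.5, 216 and 176 in the nearer 3 steps and of 40 and 47 in the farther ones, both below the WT median of 73. Median member pileup stayed between 46 and 52 throughout.

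The highest members came from both kinds. Of the 20 with the highest pileup, from 102 to 166, 11 were far and 9 near. The highest (chr14:86438099-86439354, mm10) had a pileup of 166 and a fold of 10.75, and lay between genes 216.7 kb from Diaph3, which encodes a formin. Its nearest WT peak was 2743 bp away with a pileup of 40. The second (chr6:147784508-147786480) had a pileup of 162 and lay 153 kb from Ccdc91. The third (chr12:116167479-116169197) had 149 and lay 19.9 kb from Vipr2, a receptor gene for vasoactive intestinal peptide. Their nearest WT peaks were 42.7 kb and 33.4 kb away.

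The member of the highest fold stands apart in shape. It was 216 bp wide (chr1:24612630-24612845), with a pileup of 143 and a fold of 31.4, 24.8 kb from Col19a1, and the far members had a median width of 820 bp. As background, chromosome 1 carries a copy of mitochondrial DNA in this stretch, and no sequence was at hand to check it. The highest mitochondrial pileup was 13380.6 times the lowest background of the dKO list and 5514.5 times that of the WT list, and its part in this member was not tested.

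Other high members lay beside genes of many roles. In Vps13d, a lipid transfer protein gene, a member of pileup 136 stood on a background of 53.2, the highest of any member, and had a fold of only 2.53. Near Cxcl14, an epithelial chemokine gene, one had a pileup of 128 and a WT peak 817 bp away. Kcnh2 (119), Abcc9 (107) and Abcc8 (107) encode potassium channel subunits or their regulators, and the Abcc9 member had its nearest WT peak 41.4 kb away while the Abcc8 member had it at 2508 bp. A member 381.8 kb from Robo1, a receptor of axon guidance, had a pileup of 106. Members at Mapk4 (112), Mgat1 (111), Fhl5 (109), Sema4f (109), Inpp4b (107), Sesn3 (105), Cobll1 (103) and Rnase2b (102) and 2 in Dkk2 (111 and 110) complete the 20.

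Members were rare at the ends of protein-coding genes. Only 42 had their summit within 1 kb of either end of such a gene (3.41%, 2.53 to 4.57), against 32.6% of strong dKO peaks with a WT peak, a difference of −29.2 percentage points (−30.2 to −27.9). Peaks at gene ends are higher, and after reweighting to the members' pileups the share in the comparison peaks was 16.6%. Near members reached 4.70% and far members 1.43% (0.697 to 2.93). Measured to annotated gene starts alone, a choice made after the data were seen, 27 of 1189 members were within 1 kb (2.27%), against 29.9%. Position was not used by the rule, though height was.

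The members lay instead inside genes and between them. Gene bodies held 46.9% of members (44.1 to 49.7) and 35.7% of strong dKO peaks with a WT peak, or 44.3% after reweighting. The reweighted share lies inside the interval of the members. Gene bodies held 39.3% of far members (35.1 to 43.75) and 51.8% of near members (48.2 to 55.4). Ground between genes held 49.7% (46.9 to 52.5) against 31.7%, a difference of 18.02 points (15.2 to 20.9), with 39.1% after reweighting. It held 59.2% of far members (54.8 to 63.5) and 43.5% of near members (39.97 to 47.1). The share inside long noncoding RNA genes was 11.4% against 11.7%, a difference of −0.276 points whose interval (−1.97 to 1.65) includes 0.

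**Figure D3:**
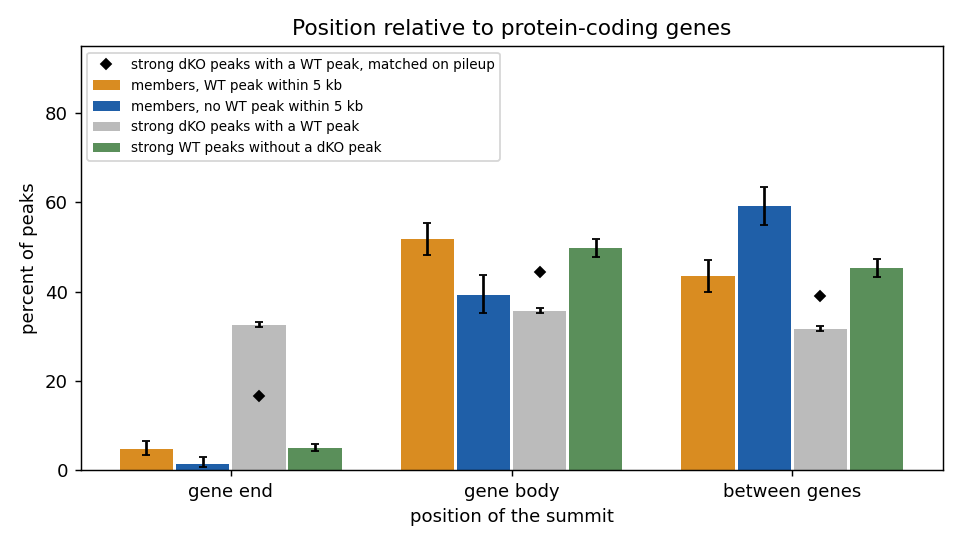
Percent of peaks (y axis) with the summit within 1 kb of a gene end, in a gene body or between protein-coding genes, for near and far members, strong dKO peaks with a WT peak and strong WT peaks without a dKO peak. Error bars are 95% Wilson intervals and diamonds give the comparison peaks reweighted to member pileups. Gene ends held 4.70% of near and 1.43% of far members against 32.6% of the comparison peaks and 16.6% after reweighting.

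Members were also common where genes are few, and mainly the far ones. Of all members, 503 had at most 5 protein-coding genes within 500 kb (40.8%, 38.1 to 43.6), against 22.1% of strong dKO peaks with a WT peak (25.3% after reweighting), a difference of 18.7 points (15.97 to 21.5). Among far members the share was 61.1% (56.7 to 65.3) and among near members 27.5% (24.4 to 30.8). Far members are defined by the absence of WT peaks around them, so where they lie also depends on how densely WT peaks lie. The part of this in the shares by gene density, here and below, was not tested. More than 100 kb from any protein-coding gene lay 17.4% of members against 7.25%. Inside genes of at least 500 kb lay 7.14% of members (5.83 to 8.71) against 2.92%, with 3.87% after reweighting.

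Set against all strong dKO peaks at each gene density, far members fell from 4.08% of peaks with 0 to 5 genes within 500 kb (3.65 to 4.56) through 1.38%, 0.985% and 0.493% to 0.236% with 24 to 74 genes (0.140 to 0.395). Near members fell less, through 2.81%, 2.66%, 2.55%, 1.97% and 1.55%, and the intervals of the first 3 overlapped. The plot of member shares by gene density shows the steep line of the far members and the flatter line of the near ones.

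**Figure D4:**
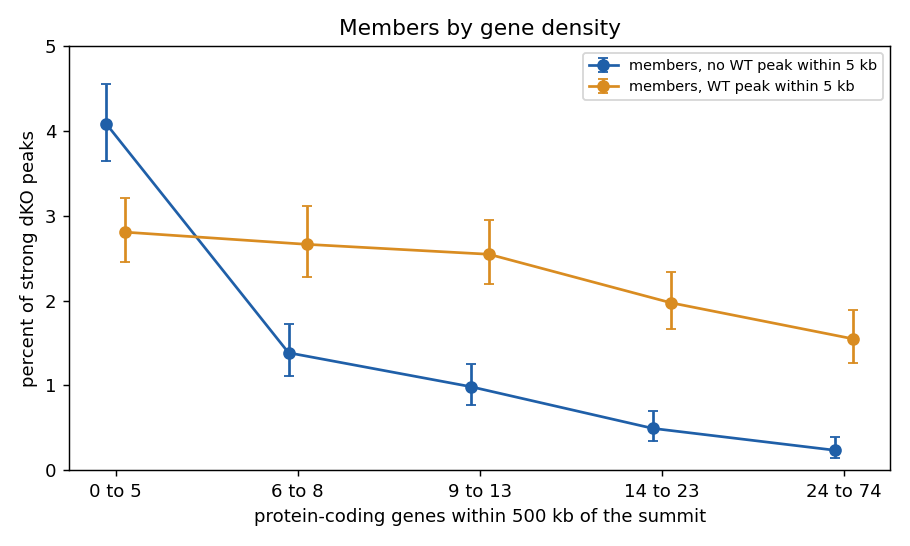
Members as percent of strong dKO peaks (y axis) by the number of protein-coding genes within 500 kb of the summit (x axis), with 95% Wilson intervals. Far members (blue) ran from 4.08% to 0.236% and near members (orange) from 2.81% to 1.55%.

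The opposite set, strong WT peaks with no dKO peak, shared most of these features, to different degrees. It held 2465 of 34155 strong WT peaks (7.22%), and 70.5% of it lay within 5 kb of a dKO peak, against 60.4% of members within 5 kb of a WT peak. Gene ends were rare in it too, at 5.03%, a difference of −1.62 points (−2.91 to −0.213) for members against it. The feature of few genes around was present in it to a smaller degree: 23.9% (22.3 to 25.7) had at most 5 genes within 500 kb, against 20.5% of strong WT peaks with a dKO peak, and members exceeded it by 16.9 points (13.7 to 20.1). Among far peaks the shares were 61.1% and 35.3%, a difference of 25.8 points (20.1 to 31.2), and among near ones 27.5% and 19.2%, a difference of 8.35 points (4.71 to 12.1). The division by fold was present in the opposite set as well: 85.4% of its near peaks (83.7 to 87.0) and 9.20% of its far peaks (7.31 to 11.5) had a fold under 7, against 89.0% and 3.89% of near and far members. The deeper WT list has a higher median pileup, so strong means a different height in either list.

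Across chromosomes the share of strong dKO peaks that were members ran, among the autosomes and X, from 2.00% on chromosome 11 (1.47 to 2.70) to 5.08% on chromosome 6 (4.15 to 6.21). Chromosome 3 was close to the highest with 5.03% (4.10 to 6.16), and chromosome 17 and X were low with 2.66% (1.93 to 3.66) and 2.49% (1.56 to 3.95). The intervals of chromosomes 11 and 6 do not overlap. Both were picked as the lowest and the highest after the values were seen, so this is no test. The part of gene density in these shares was not tested.

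Some members came in runs. Another member lay within 100 kb of 377 of them (30.6%, 28.1 to 33.2), and 39 runs of at least 3 members held 129 members. By another measure, any other dKO peak, member or not, lay within 5 kb of 66.8% of members. This share was 97.05% for near and 20.7% for far members. Strong dKO peaks with a WT peak also lay close together, and 47.8% of them had another dKO peak within 5 kb, or 52.55% after reweighting. Runs were not counted among such peaks, so whether runs are particular to members was not tested. The largest runs had 5 members each, at Barx2, at Itpr1 and at Lsm3 and Slc6a6, and 14, 15 and 11 WT peaks lay within their spans. Runs with no WT peak in their whole span numbered 5. They lay in Dkk2 (29796 bp), beside Itga8 (56788 bp), in Tmem117 (125218 bp), and nearest to Tnp1 (19911 bp) and Col12a1 (18136 bp), genes singled out after these values were seen. Such runs are neighbouring places and not independent repeats.

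Assigned to the nearest protein-coding gene within 100 kb, 1018 members fell to 836 genes, of 12593 genes with a strong dKO peak (6.64%), and 215 members were farther away. Of the strong dKO peaks so assigned, 3.44% were members, which is the share against which each gene and list below should be read. Peaks of the same gene are not independent, and the lists were chosen with earlier results known. An interval of a list that leaves out 3.44% is therefore no test. Most genes, 705, had 1 member, 99 had 2, 18 had 3, 11 had 4, 1 had 5 and 2 had 6. Assignment by distance does not show which gene, if any, a member acts on.

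At 83 genes all strong dKO peaks were members, and 79 of these genes had a single strong peak. Dkk2 had the most, with 4 of 4, followed by Tafa1 with 3 of 3, a gene named after its values were seen. Dkk2 (gene 56811, chr3:132085266-132180304, mm10) encodes a secreted inhibitor of WNT signalling, the pathway that drives resting follicles into growth. Its 4 strong dKO peaks were all far members, with pileups of 58, 57, 111 and 110 and folds of 8.93, 11.3, 12.3 and 12.7. The last 3 lay inside the gene, and their nearest WT peak was 35.5, 53.1 and 64.1 kb away. Over all strengths the gene had 11 dKO peaks, 10 of them without a WT peak, and a single WT peak of pileup 19. Itga8 (gene 241226, chr2:12106632-12301985), which encodes the integrin α8 subunit, had 6 members among 7 strong dKO peaks, with pileups of 41, 75, 102, 39, 66 and 53. Of its members, 4 were far and 2 near. Itga8 had 12 dKO peaks in all, 11 without a WT peak, and 1 WT peak. Among the peaks assigned to each of these genes, the dKO list thus had many and the WT list 1.

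The members of Barx2 and Itpr1 had other surroundings. Barx2 (chr9:31846044-31913285), a homeobox transcription factor gene, had 6 members among 24 strong dKO peaks, 5 of them near, with pileups of 42 to 67. Their gaps to a WT peak were 313 to 2071 bp for the near 5, and 26505 bp for the far member. The locus had 21 WT peaks in all, and the near members lay between peaks open in both genotypes. Itpr1 (chr6:108213083-108551116), which encodes a calcium channel of the endoplasmic reticulum, had 5 members among 18, all inside the gene, with pileups of 40 to 60 and folds of 5.24 to 9.52, and 1 of them was far. The maps of the loci show the members of Dkk2 and Itga8, most of them far from a WT peak, beside the crowded loci of Barx2 and Lhx2.

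**Figure D5:**
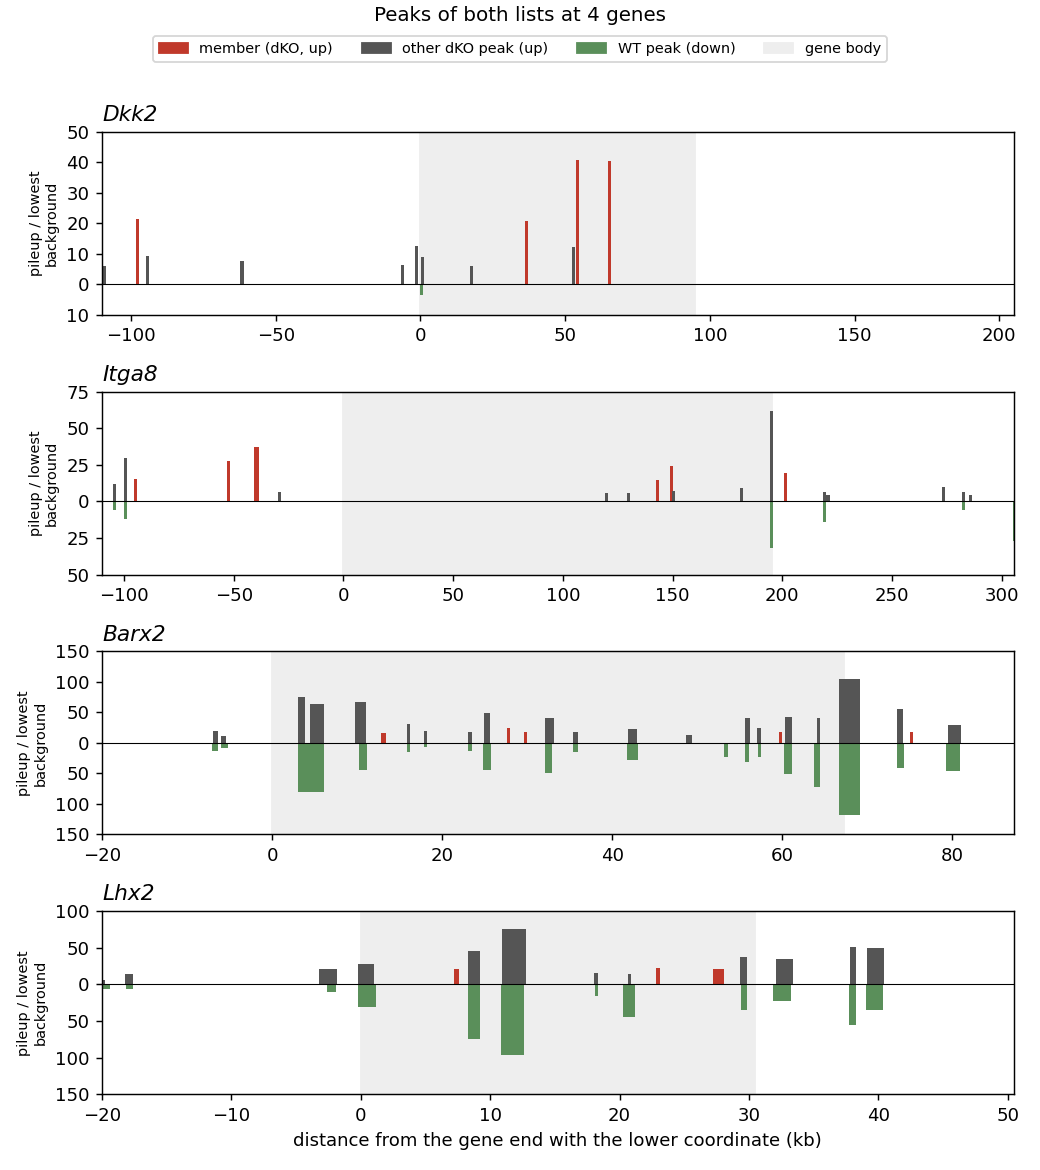
Peaks of both lists at Dkk2, Itga8, Barx2 and Lhx2, with height as pileup over the list's lowest background (y axis, dKO upward and WT downward) and distance from the gene end of lower coordinate in kb (x axis). Narrow peaks are drawn at a minimum width to be visible. Members (red) in Dkk2 reach 40.7 and 40.3 with no WT peak beside them, and those of Barx2 and Lhx2 lie between peaks found in both lists.

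Very long genes held far members. Fhit (chr14:9550092-11162061), which lies at a chromosomal fragile site, had 4 members among 15 strong dKO peaks, all far, with pileups of 47, 38, 62 and 75 and gaps to WT of 45271 to 122208 bp. Tenm3 (chr8:48225665-49522824), a teneurin adhesion gene, also had 4 far members, among 20, with pileups of 38 to 69. Rbfox1 (chr16:5884793-7412480), a splicing regulator of neurons, had 4 among 13, of which 3 were far, with pileups of 38 to 70. Tenm2 (chr11:36006656-37237053), another teneurin, had 4 among 22, and none was far: their folds were 2.09 to 2.69 and the gene had 66 WT peaks. Of these 4 long genes, 3 thus held far members and Tenm2 near ones.

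Near members made up most of the other genes with several. Cxcl14 had 4 members among 18 strong dKO peaks, 3 of them near. Adgra3, an adhesion receptor gene, had 4 among 19, with 2 near and 2 far, and Vps13d 4 among 10, also 2 and 2. Slc6a6, the taurine transporter gene, had 4 among 13 and Filip1l 4 among 30, all near, and Igfbp7, a secreted binding protein of insulin-like growth factors, had 3 among 14, also all near. The folds of the Filip1l members were 2.05 to 3.66.

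Among the NFI genes, members lay at Nfia and Nfib. Nfia (gene 18027, chr4:97578066-98118876), a family member not targeted here, had 4 members among 14 strong dKO peaks. Of these, 3 were far, with pileups of 39, 38 and 46, folds of 8.89, 8.91 and 8.77 and gaps to WT of 49155, 13969 and 21384 bp, and the last was near, with a pileup of 92 and a fold of 2.50, 290 bp from a WT peak. Nfib had 2 near members, 47.1 and 84.4 kb outside the gene, with pileups of 48 and 54. Nfix, Nfic and Sox9 had 0 members. Together the 5 genes had 6 members among 65 strong dKO peaks (9.23%, 4.30 to 18.7), against 3.44% over all genes. This share rests on Nfia, and peaks of the same gene are not independent. The list was chosen with earlier results known, so the interval is no test. Nfia is 540.8 kb long. Genes of at least 500 kb held 7.14% of all members and 2.92% of strong dKO peaks with a WT peak, and the part of length was not tested. The deletion itself was not analysed here.

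Of 16 bulge transcription factor genes, all with a strong dKO peak, 7 had a member, in all 11 of 182 strong peaks (6.04%, 3.41 to 10.5), and 10 of the 11 were near. Near members are the larger kind over all assigned members too, of which 34.0% were far, and no difference from them was tested. Lhx2, which maintains the bulge stem cells, had 3 members inside the gene with pileups of 58, 63 and 59, folds of 1.89, 4.125 and 3.55 and WT peaks 740, 1609 and 1333 bp away. Nfatc1, which keeps them at rest, had 3 with pileups of 65, 39 and 64. Tcf7l2, Zeb1, Foxp1 and Vdr had 1 near member each, and Gli3, an effector of hedgehog signalling, had the far one, with a pileup of 40 and a WT peak 5633 bp away.

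Bulge surface and secreted marker genes had 6 members among 100 strong peaks (6%, 2.78 to 12.5), all near, in 4 of 19 genes. Lgr5, the WNT-amplifying receptor of follicle stem cells, had members of pileup 43 and 59, and Fgf1 of 39 and 60. Itga6, the integrin used in the sort, had 1 of pileup 67 at 44.5 kb from the gene, and Fbn2 1 of 56. The intervals of both lists reach down to or below the 3.44% of all assigned strong peaks.

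Members at signalling genes are given by pathway, and a difference between the pathways was not tested. WNT genes had 8 members among 109 strong peaks (7.34%, 3.77 to 13.8), against 3.44% of all assigned strong peaks. They lay at 5 of 25 genes, and 5 of the 8 were far, 4 of them those of Dkk2. Among all assigned members 34.0% were far. The other far one lay in Wnt3, a WNT ligand, with a pileup of 38 and a WT peak 5195 bp away. Wnt7b, another ligand, and the receptor genes Lrp5 and Lrp6 had 1 near member each. Genes of BMP signalling, which keeps the stem cells at rest, and of TGF-beta signalling had 7 among 113 (6.20%, 3.03 to 12.2) in 7 of 24 genes. The ligand genes Bmp2 and Tgfb2, the matrix binding protein gene Ltbp1 and Smad1, Smad5 and Smad7, which act inside the cell, had near members, and the receptor gene Bmpr1b had the far one, with a pileup of 43.

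Wound and stress genes had 13 members among 156 strong peaks (8.33%, 4.94 to 13.7), against 3.44% of all assigned strong peaks. The members lay at 10 of 27 genes, against 6.64% of all genes with a strong peak, and 12 of the 13 were near. This list too was chosen with earlier results known, so its interval is no test. Tnc, the gene of the matrix protein tenascin C, held 3, with pileups of 44, 45 and 49, the first of them far at 12425 bp from a WT peak. Fosl2, a partner of JUN in AP-1, had 2 near members of pileup 66 and 52. Fos, Atf3, Ets2, Elk3, Stat3, Nfkb1, Il1b and Itga5 had 1 each.

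Neural adhesion and guidance genes had the largest share of members among the lists with at least 20 strong peaks. This list was drawn up with an excess of dKO peaks at Rbfox1, Nkain2 and Ctnnd2 already known, so its share supports nothing. It had 15 members among 91 strong peaks (16.5%, 10.2 to 25.4) in 11 of 17 genes, and 11 of the 15 were far, against 34.0% of all assigned members. Nlgn1, a postsynaptic adhesion gene, had 2 far members of pileup 68 and 44. Nrxn3, its presynaptic counterpart, had 1 of pileup 55 with the nearest WT peak 588845 bp away, and Dpp10 1 of pileup 52 at 1409819 bp, the largest gap of all. Ctnnd2 (56), Opcml (80), Cntn5 (40) and Nkain2 (47) had 1 far member each, and Ctnna2 (40), Ptprt (50) and Dlgap1 (72) 1 near member each. Far members in general were common in long genes and where genes are few, and the part of both in the list's share was not tested.

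Lists of differentiated follicle and skin cells had few members. Hair lineage genes had 1 among 47 strong peaks, at Trps1 (pileup 44), and interfollicular epidermis and barrier genes 1 among 40, at Grhl1 (pileup 53). Sebaceous gland and upper follicle genes had 0 among 49, which allows a share of up to 6.12%. None of these shares can be told from 3.44% at such numbers. Of the lists for other cell types, fibroblast genes had 1 member among 7 strong peaks, at Col3a1 (pileup 45), endothelial genes 1 among 19, nearest to Cdh5 at 64.3 kb (pileup 45), melanocyte genes 0 among 12 and immune genes 0 among 1. Housekeeping genes had 0 among 19.

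Of the 42 members at gene ends, 35 were near. By pileup, the first was at Fgl1 (77), far from any WT peak at 20756 bp, and the second at Zfp932, a zinc finger gene whose promoter is printed above, with 74 and the second highest fold of any named member, 20.1, at 60923 bp. The next ones were near: Dach1 (72), Pi15 (72), Zfp524 (69), Gtf2i (68), Gpt (68), Hrc (66), Socs3 (61), S100a4 (61), Col7a1 (60) and Phka2 (58), with folds of 1.67 to 6.74. Socs3 encodes an inhibitor of cytokine signalling and Col7a1 the collagen of anchoring fibrils below the epidermis. The member at Egf, a growth factor gene whose promoter is also printed above, had a pileup of 47 and a fold of 8.88, with the nearest WT peak 28924 bp away.

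None of 1005 annotated miRNA hairpins was overlapped by a member, and 7 lay within 5 kb of a member. Hairpins were not counted for strong dKO peaks with a WT peak, so whether these counts are particular to members was not tested. The nearest was Mir7043 at 994 bp, and Mir125b-1, whose miRNA is abundant in skin stem cells, lay 1742 bp from a member of pileup 42.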

How the data were processed

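ATAC-seq libraries of 2 WT and 2 dKO mice were sequenced from both ends with reads of 50 bp, per the labels' protocols. Bowtie2 2.2.9, Picard and MACS2 and the builds mm10 and GRCm38 are named, with no role or order, in the submitters' processing notes. Read shifting, duplicates, calling settings and the pooling of mice are steps not given in the sources used here. Each deposited table is 1 peak list for both mice of a genotype. The signal deposited by the authors is the pileup at the summit, not scaled for depth. The authors' fold is a ratio, (pileup + 1)/(local background + 1). Peak significance was deposited as −log10 p and −log10 q. Their damaged headers were settled by position and by recomputing p, which came within 0.001 of the deposited −log10 p for 100% of 62822 dKO and 99.98% of 62811 WT peaks. Both lists reach down to a −log10 q of 1.304 in the authors' deposited table. Precision rests on the lists' backgrounds, since read totals were not analysed here.

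Members were found by overlap of at least 1 bp (Python 3.11.15, pandas 2.3.3, numpy 2.4.6, scipy 1.17.1), and bedtools gave the same count. Summits were placed on a RefSeq gene table of GRCm38.p6 without strand, and 271 of 272 list entries matched a gene in it. Shares carry Wilson and differences Newcombe 95% intervals, and medians order-statistic intervals. Reweighting to member pileups used 10 bins. The steps were tested on simulated data. Comparisons were counts, with no test between genotypes, since each has 1 list. The members, lists and rules were chosen with earlier results of these data known. Named are the 20 highest members, up to 15 genes with at least 3 members, list genes with a member, up to 12 gene-end members, the NFI genes and Sox9, and peaks at the threshold. Planned motif counts at summits were replaced by promoter windows, and chromosome 18 has no window. Mitochondrial peaks were left out. Alternatives changed overlap, strength, distance and gene assignment.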

Additional observations from a re-analysis of the deposited data

Results flagged for a closer look

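Mitochondrial peaks were outside every comparison, and the highest of them had a pileup of 13380.6 times the lowest background of the dKO list, against 5514.5 times in the WT list, which is the control here.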

How the results depend on the processing

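There were 75 values, 8 as reported and 67 under alternatives. The differences at gene ends, between genes, where genes are few and in width kept their sign throughout. The other values are counts, gaps or shares, which have no sign to reverse. Of the alternative values, 20 stayed within the 95% interval of the reported value (for the number of members, within 1.5 times of it) and 47 moved. Differences are members minus strong dKO peaks with a WT peak, in percentage points unless in bp. As reported they are −29.2 at gene ends, 18.02 between genes, 18.7 where genes are few and −435 bp in width. The median gap to WT was 3084 bp, and 30.6% of members had another within 100 kb. Of list genes with a strong dKO peak, 24.6% had a member, against 6.64% of all such genes. The share of all such genes is given only as reported, so the alternatives do not bear on that comparison. Genes with more strong peaks have more places for a member, and neither share allows for that.

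If only WT summits within 200 bp counted as present there were 4041 members in place of 1233, and the differences were −9.81 at gene ends, 4.47 between genes, 5.03 where genes are few and −16 bp in width, whose interval (−36 to 12) includes 0, with a gap of 0 bp, 55.0% and 47.8%. At or above the 75th percentile of pileup (83), 61 members were left, with −47.4, 34.3, 26.6 and −298 bp, a gap of 3910 bp, 6.56% and 1.27%. For the 488 members more than 5 kb from a WT peak, a setting chosen after seeing the data, they were −31.15, 27.5, 38.99 and −190 bp, with 22877.5 bp, 19.9% and 7.46%. With a WT peak within 1 kb counted as present they were −30.4, 21.5, 22.5 and −368 bp, with 4767 bp, 25.3% and 17.7%. Against comparison peaks matched on pileup they were −13.2, 10.65, 15.5 and −231 bp. Strength by fold gave 24.96 between genes, 30.2 where genes are few, −307.5 bp, 16825.5 bp and 33.3%. A −log10 q of at least 5 gave −385 bp and 3604 bp. Gene starts, also chosen after seeing the data, gave −27.6, genes within 1 Mb 15.8, members within 50 kb 22.2%, nearest genes within 20 kb 18.9% and all genes within 10 kb 18.1%.

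Of the 1698 members by fold, 571 were among the 1233. Motif alternatives were not run, since no genome was held. No paired analysis was possible because the genotypes share no mouse number and each has 1 list, for which reason no mouse could be left out either. The dKO list's lower background limits which weak peaks it could hold.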
